A study of Homo sapiens with 4 samples.

Results

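The acute phase and plasma protein genes comprised 34 genes of the 34809 gene names on the array. They were 18 positive acute phase genes, whose products increase in plasma during inflammation, 7 negative ones, whose products decrease, 5 other plasma proteins and 4 genes of IL-6 signalling. The members were taken from a list of gene names, and each gene was read from its probe with the highest mean log2 signal over the 4 arrays. The 34 genes had 46 probes, and 27 genes had a single probe. RNA came from Hep3B, a human hepatocellular carcinoma line, transfected with pLKO.1 short hairpin RNA plasmids and selected with puromycin, so the mock cells carried a hairpin plasmid and the drug as well. One array each was hybridised for the mock hairpin (shR-MOCK) and for 3 hairpins that target UNC50 (shR-749, shR-554, shR-467). The 3 hairpins were taken as 3 replicates of UNC50 knockdown, and with 1 mock array the spread between control cultures is unknown. A test of 1 array against 3 by exact permutation cannot give a p below 0.25.

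The liver secretes most plasma proteins, and inflammation changes which of them it makes. IL-6 binds its receptor IL6R together with the shared subunit IL6ST (gp130), which leads JAK kinases to activate STAT3, while SOCS3, itself a STAT3 target, damps the signal. IL-1 and TNF act through NF-kB, and factors of the C/EBP family take part in both branches. Serum amyloid A, C-reactive protein, haptoglobin and lipocalin 2 are among the proteins induced, and albumin and transthyretin are among those reduced.

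All 8 hepatocyte markers that were listed had signals well above background on every array, as did 33 of the 34 genes. APCS was not well above background with shR-554. The summed scaled signal of the hepatocyte markers was itself higher on the knockdown arrays. It was 318.5 on the mock array, 442.0 (shR-467), 338.1 (shR-554) and 401.1 (shR-749). Their median log2 difference was 0.45 on average over the hairpins, and 4 of the 8 were at least 1.5-fold higher on average. All 8 were above mock with shR-467, but only 4 with shR-554 and 6 with shR-749. The share of spots well above background ran from 67.6% to 73.6% per array, and no spot was saturated. The neutrophil genes MPO and ELANE never came well above background, and neither did the fibroblast gene COL1A1. Other genes of these lists did. On the mock array, 5 of the 7 leukocyte markers with a probe and 5 of the 6 stroma markers were well above background. On each knockdown array 3 or 4 of either list were. The summed scaled signal of the stroma markers was 0.367 on the mock array and 0.455 to 0.578 on the knockdown arrays. The summed scaled signal of the 7 leukocyte markers with a probe was 3.21 on the mock array and 2.60 to 3.51 on the knockdown arrays, of which CD68 held the most. Without CD68 the sums were 0.254 and 0.140 to 0.300. The cultures were of the Hep3B line only, and in whole-culture RNA fewer expressing cells and less RNA per cell cannot be told apart. UNC50 itself had a scaled signal of 4.47 with shR-MOCK, 1.07 under shR-467, 0.614 under shR-554 and 0.838 under shR-749, where the scaled signal is the processed signal divided by the 75th percentile of its array. This left 24.0%, 13.7% and 18.7% of the mock level.

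LCN2 stood lower on all 3 knockdown arrays by more than any other gene of the list. SAA1 and SAA2 were lower as well, by a mean of -0.98 and -0.78 on the log2 scale, while the heme-binding HPX and the negative acute phase gene TTR were higher with every hairpin. HP was higher on average, which rested on shR-467 alone. The other 28 genes had a mean change under 1.5-fold. The probes behind 3 of these readings lie in coding sequence and are shown because the results turn on them. Each is 60 bases long and is written 5′ to 3′ as the array design gives it.
LCN2 probe: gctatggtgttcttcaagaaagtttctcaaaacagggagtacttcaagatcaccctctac
SAA1 probe: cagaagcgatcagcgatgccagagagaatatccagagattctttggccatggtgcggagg
HPX probe: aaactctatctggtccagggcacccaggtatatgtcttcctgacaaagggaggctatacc
The LCN2 probe is annotated at chr9:130914244-130914303 on hg19. The SAA1 and HPX probes carry no position in the array's annotation.

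LCN2 encodes lipocalin 2, which binds bacterial siderophores and is secreted by liver cells and neutrophils. Its scaled signal reached 1.78 in mock cells, against 0.506 under shR-467, 0.131 under shR-554 and 0.111 under shR-749. All 3 knockdown arrays were below the mock array, and shR-554 and shR-749 were far below shR-467. These levels were 28.5%, 7.37% and 6.25% of mock, and the mean log2 difference was -3.19 ± 1.20 (SD, n = 3), a 9.13-fold lower level. The limma interval (95%) ran from -5.05 to -1.33. The unadjusted p from limma was 0.00486 and the adjusted p over all genes was 0.9998. The dimmest of the 4 readings was 5.02 times the lowest signal that counted as well above background there. By mean log2 difference LCN2 held place 17 from the lowest among the 24902 genes that passed the filter on dim probes.

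**Figure D1:**
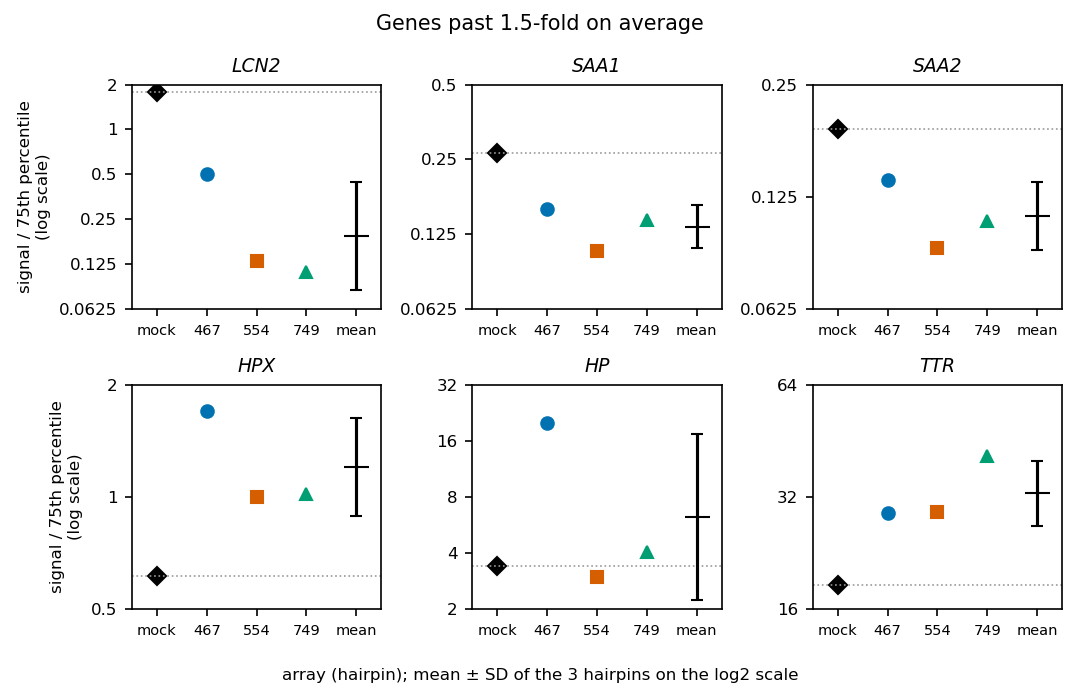
Scaled signal (processed signal divided by the array's 75th percentile, log axis) of the 6 genes past 1.5-fold on average, with 1 point per array, the mock level as a dotted line, and the mean and SD of the 3 hairpins on the log2 scale at the right. LCN2, SAA1 and SAA2 lie below mock with every hairpin, HPX and TTR above it, and HP is far above it with shR-467 only.

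The pattern of LCN2 over the 3 hairpins was set against 21200 other genes well above background on all 4 arrays. The nearest by Euclidean distance of the 3 log2 differences were GPA33 at 0.754, ODAM at 0.825, REG1A at 1.30, LOC100131907 at 1.61 and C4orf7 at 1.77. GPA33, an intestinal epithelial surface antigen, had log2 differences of -1.42 (shR-467), -3.29 (shR-554) and -3.56 (shR-749). ODAM, an enamel-associated secreted protein, had -1.66, -2.99 and -3.75. These genes were picked for their likeness to LCN2, so their order over the hairpins is no separate observation. Their differences share the mock array and rest on 3 hairpins.

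SAA1 and SAA2 encode the acute phase serum amyloid A proteins carried on high-density lipoprotein. The scaled signal of SAA1 was 0.265 with shR-MOCK, 0.157 under shR-467, 0.108 under shR-554 and 0.143 under shR-749. The mean log2 difference was -0.98 ± 0.29 (SD, n = 3), and limma gave an unadjusted p of 0.0214. For SAA2, read at chr11:18266791-18266850 on hg19, the scaled signal was 0.191, 0.139, 0.0913 and 0.108 in the same order. Its mean was -0.78 ± 0.30, with a limma interval from -1.61 to 0.05, and its difference with shR-467 was -0.46, short of 1.5-fold. No knockdown array overlapped the mock level for either gene, and shR-554 was the lowest for both. SAA1 and SAA2 are close copies, and how far their probes share transcripts was not tested. SAA4, the constitutive member of the family, had a mean of -0.04 and went both ways, at 0.34 with shR-467 and -0.29 with shR-554.

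HPX encodes hemopexin, which carries free heme to the liver. Its scaled signal was 0.616 with shR-MOCK, 1.70 under shR-467, 1.00 under shR-554 and 1.02 under shR-749. The 3 hairpins were all above mock, and shR-467 was the highest. The mean log2 difference was 0.96 ± 0.44 (SD, n = 3), and limma gave an unadjusted p of 0.0264. HP encodes haptoglobin, which binds free hemoglobin, and its probe is at chr16:72094877-72094936 on hg19. Its scaled signal was 3.40 with shR-MOCK, 20.0 under shR-467, 2.97 under shR-554 and 4.08 under shR-749. The mock array thus lay among the knockdown arrays. The mean log2 difference of 0.87 ± 1.47 was smaller than its SD, and without shR-467 it was 0.03. HP has a close relative in HPR, and probe sharing was not tested.

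TTR encodes transthyretin, the carrier of thyroxine and of retinol-binding protein. Its scaled signal was 18.6 with shR-MOCK, 29.0 under shR-467, 29.2 under shR-554 and 41.3 under shR-749, read at chr18:29178720-29178779 on hg19. All knockdown arrays were above the mock array and shR-749 was the highest. The mean log2 difference was 0.81 ± 0.29 (SD, n = 3), with a limma interval from 0.26 to 1.36 and an unadjusted p from limma of 0.0104. With quantile normalization, in the authors' processed values and with normexp correction followed by quantile normalization, the difference with shR-467 fell just short of 1.5-fold.

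The members were chosen with earlier results of these data known, so the shares below describe the list and do not test it. Counted over the list, 3 of 34 genes were at least 1.5-fold higher on average (HPX, HP and TTR), which is 8.82% beside 2.28% of all genes tested. Another 3 were at least 1.5-fold lower (LCN2, SAA1 and SAA2), again 8.82%, beside 7.47% of all genes, so the share of lower genes was near the background. With every hairpin, 2 were higher (HPX and TTR) and 2 lower (LCN2 and SAA1), 5.88% each, beside 0.534% and 1.18% of all genes. The shares of lower genes are not a like background. A probe could pass the filter through the mock array alone but otherwise needed all 3 knockdown arrays, which adds dim lower genes. Well above background on all 4 arrays were 21233 of the 24902 genes tested, beside 33 of the 34. SAA2 was the last gene inside the threshold at -0.78, and AZGP1, a zinc-binding plasma glycoprotein, the first outside it at -0.50. limma called 0 of the 34 genes at an adjusted p under 0.05, and 0% of all genes. At an unadjusted p under 0.05 it had 4 of the 34 (LCN2, SAA1, HPX and TTR), beside 1.51% of all genes. The methods' t-test gave 0 of 34 at an unadjusted p under 0.05 and 0 after Benjamini-Hochberg adjustment. In simulated arrays with 200 genes changed 4-fold, limma likewise called 0, so a count of 0 is uninformative for a change of that size. The simulated mock array was given the spread of the hairpins, and larger changes such as that of LCN2 were not simulated.

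**Figure D2:**
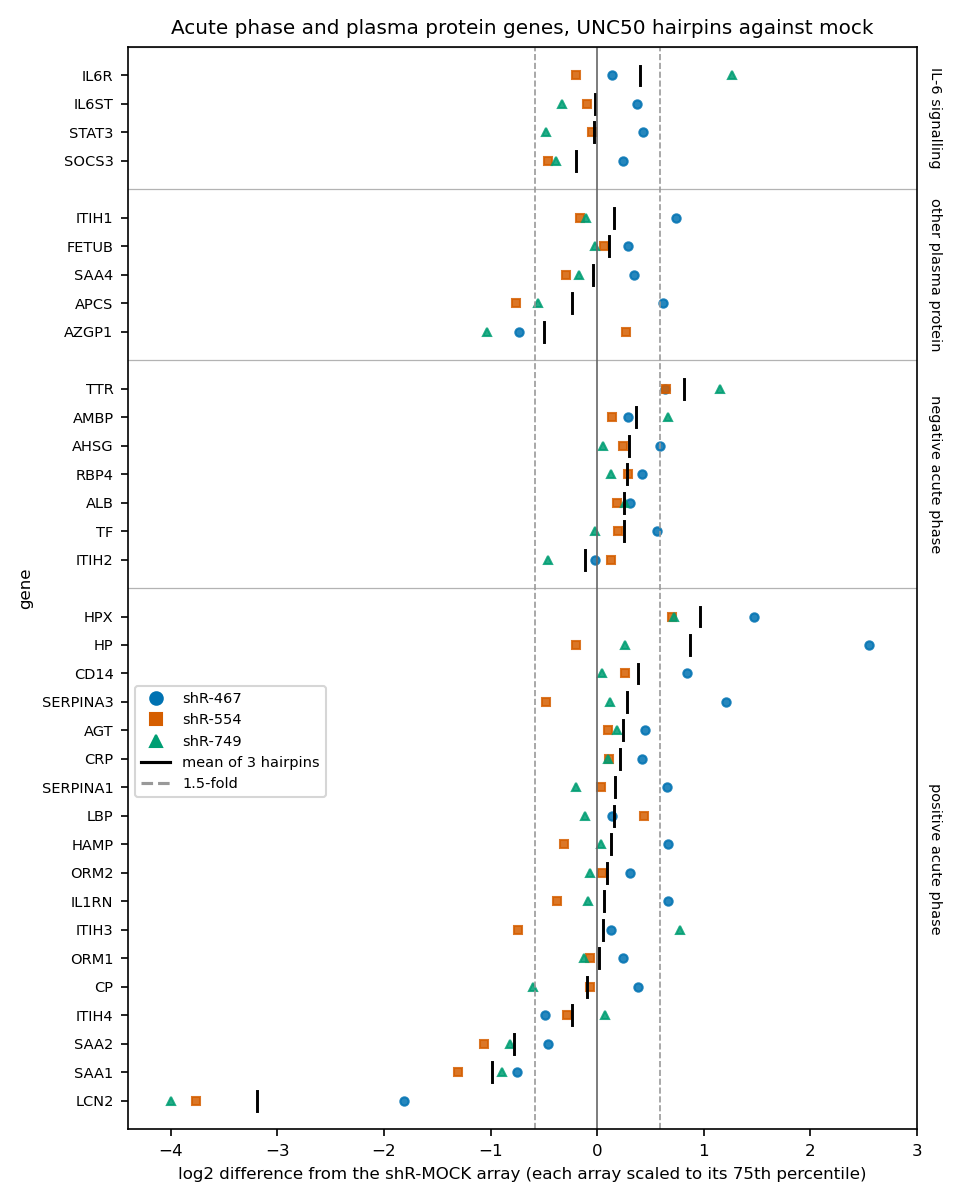
Log2 difference from the mock array for each of the 34 genes (rows, grouped by role and ordered by mean), with 1 symbol per hairpin, the mean as a black bar and 1.5-fold as dashed lines. The means of 28 genes sit between the dashed lines, but only 15 genes have the symbols of all 3 hairpins there. Of the 34 genes, 26 have their highest value with shR-467, and LCN2 lies far to the left.

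The best known positive acute phase protein, CRP, a pattern recognition molecule that binds phosphocholine, was dim. Its scaled signal was 0.0229, 0.0306, 0.0247 and 0.0246 in the order mock, shR-467, shR-554, shR-749. Its lowest reading was only 1.11 times that lowest signal, and its second probe stayed in the background range throughout. The mean log2 difference was 0.21 ± 0.18 (SD, n = 3), under 1.5-fold with each hairpin. SERPINA1 (alpha-1-antitrypsin), an inhibitor of neutrophil elastase, read 56.7, 89.3, 58.1 and 49.5 in the same order of arrays. It was above mock with shR-467, at 0.65 on the log2 scale, and close to it with the others, with a mean of 0.16 ± 0.44.

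The remaining positive genes had means between -0.23 (ITIH4) and 0.38 (CD14, the lipopolysaccharide co-receptor). With shR-467, SERPINA3, HAMP, CD14 and IL1RN also passed 1.5-fold upwards, and none of these passed it with shR-554 or shR-749. SERPINA3 encodes alpha-1-antichymotrypsin, and its 3 probes had means from 0.28 to 0.50. HAMP encodes hepcidin, the hormone that limits iron export, and had a mean of 0.13 ± 0.49. ITIH3, a chain of the inter-alpha-trypsin inhibitors, went both ways, at -0.74 with shR-554 and 0.78 with shR-749. IL1RN, the IL-1 receptor antagonist, had probes of opposite sign, at 0.07 and -0.53. The chosen CP probe (ceruloplasmin, a copper carrier) is annotated outside the gene's own chromosome, with a mean of -0.09, and the other CP probe had -0.03. AGT (angiotensinogen) and LBP (lipopolysaccharide-binding protein) had means of 0.24 and 0.15.

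ORM1 and ORM2, which encode the orosomucoids, had means of 0.02 ± 0.19 and 0.10 ± 0.19. Their probes are shown because the genes are copies of each other, with the longest shared run in capitals.
ORM1 probe: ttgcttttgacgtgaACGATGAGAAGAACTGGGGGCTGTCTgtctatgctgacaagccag
ORM2 probe: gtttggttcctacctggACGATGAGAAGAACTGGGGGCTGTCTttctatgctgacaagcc
The shared run is 26 bases, and at the best ungapped offset 51 of 58 overlapping bases match. The ORM1 and ORM2 values may therefore not be separate measurements.

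Among the negative acute phase genes, ALB (albumin) had a scaled signal of 218.2 with shR-MOCK, 270.4 under shR-467, 247.6 under shR-554 and 262.3 under shR-749. All 3 hairpins were slightly above mock, by 0.25 ± 0.06 on the log2 scale (SD, n = 3), under 1.5-fold, and by 0.13 with quantile normalization. TF (transferrin, the iron carrier) had 22.9, 33.9, 26.3 and 22.6, so that shR-749 was at the mock level. Its mean was 0.25 ± 0.29. RBP4 (the retinol carrier), AHSG (fetuin-A) and AMBP (the precursor of alpha-1-microglobulin and bikunin) had means of 0.28, 0.30 and 0.36. ITIH2 was the only one of the 7 with a mean below 0, at -0.12.

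The median of the mean log2 differences was 0.11 over the 18 positive genes and 0.28 over the 7 negative genes, beside -0.03 over all genes tested. Over the 8 hepatocyte markers it was 0.45, and 7 of these had a mean above 0. A raised median was thus not particular to the negative genes. Of the positive genes 13 had a mean above 0, of the negative genes 6, and of all genes 45.7%. The positive median minus the negative one was -0.17, at -0.02 (shR-467), -0.33 (shR-554) and -0.15 (shR-749), with an SD of 0.15. Without shR-467 it was -0.30 and without shR-554 it was -0.04. The negative genes thus had the higher median with each hairpin, by less than 0.03 with shR-467. The 2 lists overlapped throughout, the positive genes running from -3.19 to 0.96 and the negative genes from -0.12 to 0.81.

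**Figure D3:**
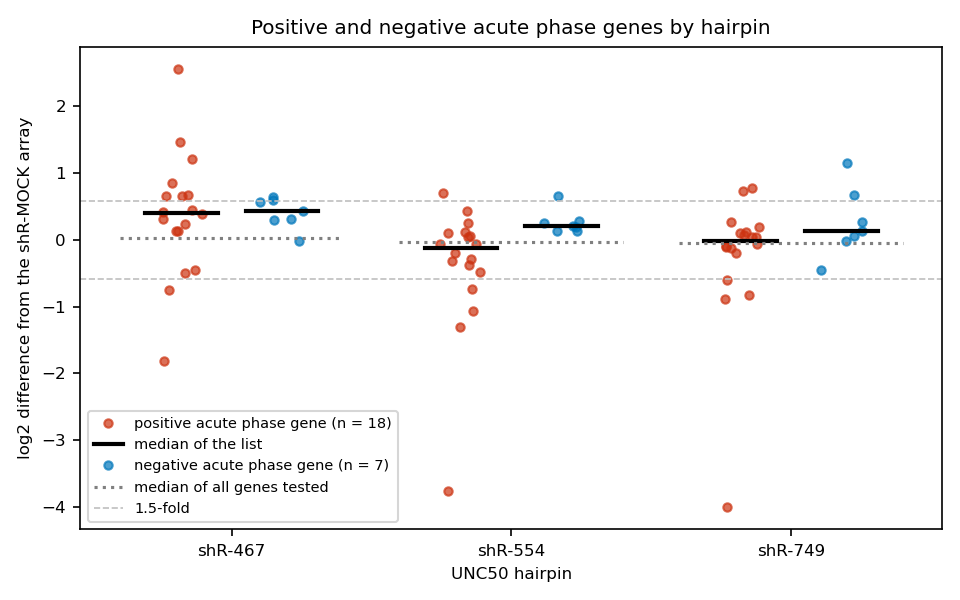
Log2 difference from the mock array (vertical axis) for the 18 positive (red) and 7 negative (blue) acute phase genes with each UNC50 hairpin. Black bars are list medians and dotted lines the median of all genes tested. The medians nearly coincide with shR-467, at 0.40 and 0.42, and differ most with shR-554, at -0.13 and 0.20.

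The hairpins differed in their overall level for these genes. The median over the 34 genes was 0.38 under shR-467, -0.06 under shR-554 and -0.04 under shR-749, while over all genes it was 0.03, -0.04 and -0.05. At least 1.5-fold higher were 11 genes under shR-467, 2 under shR-554 and 5 under shR-749, and at least 1.5-fold lower were 3, 5 and 5. Of all genes tested, 7.18%, 4.39% and 5.38% were at least 1.5-fold higher in the same 3 comparisons of single arrays, and 6.73%, 15.5% and 10.1% were lower. The hepatocyte markers also had their highest median with shR-467, at 0.47 beside 0.16 (shR-554) and 0.20 (shR-749), and the part of this shift in the values of HPX, HP and TTR was not tested. The highest of the 3 values belonged to shR-467 in 26 of the 34 genes, or 76.5%, beside 42.8% of all genes. The mock and shR-467 arrays lay in 1 row of the slide and the other pair in the other row. With that row as a block, which leaves shR-467 against mock, LCN2 had -1.81, SAA1 -0.75, SAA2 -0.46, HPX 1.47, HP 2.55 and TTR 0.64, and 14 genes passed 1.5-fold, 11 higher and 3 lower, beside 7.18% and 6.73% of all genes. Of the 6 genes above, 5 were among them.

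Of the 5 other plasma proteins, none passed 1.5-fold on average. AZGP1 was lower with shR-467 and shR-749, at -0.73 and -1.03, and higher with shR-554, at 0.27. APCS (serum amyloid P component) had 0.62 with shR-467 and -0.76 with shR-554. ITIH1 had 0.74 with shR-467, and FETUB (fetuin-B) stayed within 0.29 of mock on every array.

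In IL-6 signalling, IL6R had a scaled signal of 0.110 with shR-MOCK, 0.121 under shR-467, 0.0959 under shR-554 and 0.264 under shR-749. It stood apart with shR-749 only, at a log2 difference of 1.26, and its mean was 0.40 ± 0.77 (SD, n = 3), or -0.03 without shR-749. IL6ST had 1.17, 1.51, 1.09 and 0.929 in the same order, with a mean of -0.02 ± 0.36. Its 6 probes had means between -0.13 and 0.31. Of these, 1 probe with a mean of 0.03 is annotated on chromosome 17 and the others on chromosome 5. The probe at -0.13 was dim, its lowest reading 1.34 times the lowest signal that counted as well above background. STAT3 had 0.381, 0.515, 0.367 and 0.273, with a mean of -0.03 ± 0.46, while its second probe had a mean of 0.47. SOCS3 had 0.202, 0.239, 0.147 and 0.155, with a mean of -0.20 ± 0.38. On the chosen probes of IL6ST, STAT3 and SOCS3, shR-467 was above mock and the other hairpins below it. The second STAT3 probe was above mock with each hairpin, at 0.84, 0.12 and 0.44. The IL6ST probes differed in sign with shR-554 and also with shR-749. The limma intervals were wide, from -0.91 to 0.85 for STAT3 and from -1.06 to 0.66 for SOCS3.

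Genes that induce these proteins were read from 3 more lists. Of 18 cytokines and receptors, 15 passed the filter on dim probes, with 1 at least 1.5-fold higher on average and 2 lower, beside 2.28% and 7.47% of all genes. The higher one was IL11, a cytokine of the IL-6 family named after its values were seen, at -0.38 (shR-467), 0.63 (shR-554) and 1.64 (shR-749). TNF, the inflammatory cytokine, had a scaled signal of 0.132 with shR-MOCK, 0.0633 under shR-467, 0.0520 under shR-554 and 0.0559 under shR-749. It lay below mock under each hairpin, with a mean log2 difference of -1.21 ± 0.14 (SD, n = 3), and limma gave an unadjusted p of 0.0135. IL1B, which was chosen after its values were seen, had -0.02 under shR-467, -1.51 under shR-554 and -1.18 under shR-749. IL6 did not come well above background anywhere. None of 12 kinases and inhibitors and none of 16 transcription factors passed 1.5-fold on average. NFKBIA, the NF-kB inhibitor that NF-kB itself induces, had 24.5, 19.4, 16.2 and 15.2 in the order mock, shR-467, shR-554, shR-749. Its mean was -0.55 ± 0.18, just under 1.5-fold. CEBPB had 7.57, 7.23, 6.18 and 9.36 (mean -0.02 ± 0.30), and CEBPD had 5.02, 4.80, 4.39 and 4.62 (mean -0.13 ± 0.06). Of these 16 factors, 13 had a mean below 0, with a list median of -0.15. Of all 24902 genes tested, 13522 had a mean below 0, with a median of -0.03.

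Among 13 further acute phase genes, 12 passed the filter, with 3 at least 1.5-fold higher on average and 1 lower, beside 2.28% and 7.47% of all genes. The 3 were the fibrinogen chains. FGB, the beta chain, had a scaled signal of 1.26 with shR-MOCK, 1.98 under shR-467, 4.83 under shR-554 and 8.03 under shR-749. FGA, the alpha chain, had 0.448, 0.719, 1.25 and 2.35 in the same order. FGG, the gamma chain, was named after its values were seen and had 6.56, 9.43, 14.0 and 36.1. All knockdown arrays were above mock for each chain, with shR-749 the highest. The mean log2 differences were 1.75 ± 1.02 for FGB, 1.52 ± 0.86 for FGA and 1.36 ± 1.00 for FGG (SD, n = 3), and FGG missed 1.5-fold with shR-467, at 0.52. S100A9, a calcium-binding protein of myeloid cells, was the lower gene. It passed the filter through the mock array alone, so its direction was set by the filter, and it was at least 2.47-fold lower with knockdown.

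**Figure D4:**
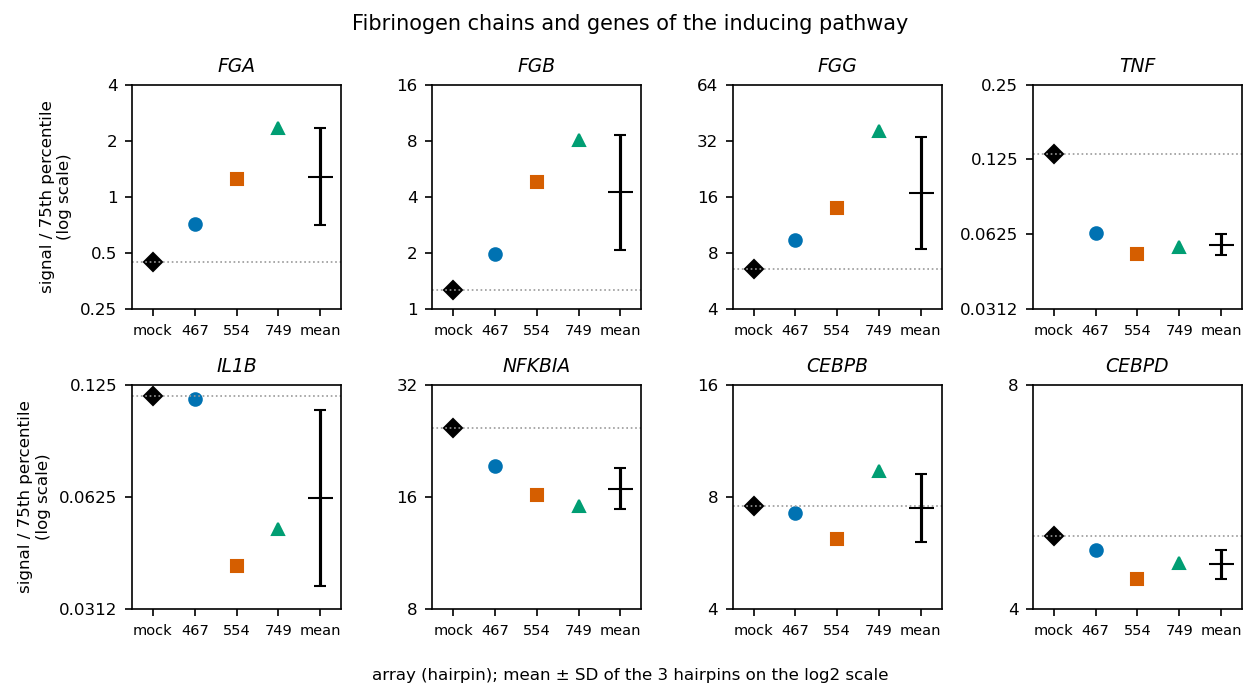
Scaled signal (log axis) of the 3 fibrinogen chains and of 5 genes of the inducing pathway, with 1 point per array, the mock level as a dotted line, and the mean and SD of the 3 hairpins on the log2 scale. Each fibrinogen chain is above mock with every hairpin, TNF and NFKBIA are below it, and CEBPB lies on both sides.

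Upstream sequence was compared for the 26 genes with an entry in the RefSeq promoter table. The 250 bases before the start were searched on both strands for TTCNNNGAA (STAT), TTGCNNAA (C/EBP) and the NF-kB letters GGGA, any base, TTTCC. The STAT letters were present in 5 of 26 genes (HAMP, ITIH4, AGT, CD14 and RBP4), beside 6.78% of 27305 promoters of the same length. The C/EBP letters were present in 5 of 26 (HPX, LCN2, ALB, AHSG and SAA4), beside 9.13%. The NF-kB letters were in none of the 26, beside 0.546%. At so low a share a count of 0 in 26 is uninformative, and sites that depart from these letters were not searched. LCN2 and HPX, the genes with an entry and a mean change past 1.5-fold, both held the C/EBP letters, shown in capitals, although LCN2 was lower and HPX higher. The sequences are from GRCh38.p14 and run 5′ to 3′ on the gene's strand, at chr9:128149203-128149452 (plus) for LCN2 and chr11:6440988-6441237 (minus) for HPX.
LCN2 upstream: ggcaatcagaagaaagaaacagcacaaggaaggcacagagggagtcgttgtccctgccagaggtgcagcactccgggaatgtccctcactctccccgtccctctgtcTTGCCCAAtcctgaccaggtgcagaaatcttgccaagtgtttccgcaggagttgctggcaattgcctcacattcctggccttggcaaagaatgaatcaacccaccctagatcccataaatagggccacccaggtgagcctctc
HPX upstream: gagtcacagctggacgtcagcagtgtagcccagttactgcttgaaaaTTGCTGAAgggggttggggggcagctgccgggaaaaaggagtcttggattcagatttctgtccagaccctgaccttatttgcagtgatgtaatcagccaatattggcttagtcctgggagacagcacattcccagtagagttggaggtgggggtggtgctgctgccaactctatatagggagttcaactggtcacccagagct
The first base of the match lay 143 bases before the start in LCN2 and 203 in HPX. A match of letters is a description of the sequence and not a measured binding site.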

How the data were processed

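Cy3-labelled RNA was hybridised to 1-colour Agilent arrays, all on 1 slide read in 1 scan. The authors deposited the output of Agilent Feature Extraction 10.7.1.1, whose processed intensity already has the background subtracted, and a table of log2 values for the same arrays, found to be quantile-normalized. Here log2 processed signals were scaled by the 75th percentile of each array, without spots marked as outliers, and spots of a probe were averaged. Probes were tested if mock, or else each of the 3 knockdowns, gave a signal well above background (24902 genes). Calls required 1.5-fold, on average or with every hairpin. limma 3.58.1 (R 4.3.3, trend, Benjamini-Hochberg) assumes that the lone mock array varies like the hairpins. The genes named follow a fixed rule: those past 1.5-fold, a preset list of well known members, and pathway genes past 1.5-fold with every hairpin, except where stated. The members and lists were chosen with earlier results of these data known. Alternatives were other normalizations, background corrections, filters, probes, thresholds and tests, and each hairpin left out. In 200 genes simulated with a 4-fold change among 24902, 197 passed 1.5-fold. The number of arrays limits the precision. Gene names are the array design's, with probe positions on hg19.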

Additional observations from a re-analysis of the deposited data

How the results depend on the processing

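The 6 genes past 1.5-fold on average were the same 6 with quantile normalization, median scaling, the authors' processed values, low signals raised, other filters, outlier spots kept and the mean over probes. With normexp followed by quantile normalization they were 5, without SAA2. Leaving out 1 hairpin gave 6 to 9: without shR-467 HP was lost and APCS gained, and without shR-554 AZGP1, IL6R and SERPINA3 were gained. With every hairpin the count was 3 under quantile normalization, alone or after normexp, and in the authors' values, where TTR was lost, 4 under the others, and 4 to 5 with a hairpin left out. At 2-fold, 1 gene (LCN2) passed on average and 1 with every hairpin. With the slide row as a block, chosen after seeing the data, 14 passed. The positive minus negative median ranged from -0.30 to -0.04 with a hairpin left out. limma called 0 genes of the list under every alternative run, 2 to 6 at an unadjusted p under 0.05. LCN2 ran from -3.88 to -1.81, SAA1 from -1.10 to -0.73, HPX from 0.71 to 1.47, TTR from 0.64 to 0.90 and HP from 0.03 to 2.55. No sign of the 6 genes changed. A block for slide or scan could not be fitted, since there was 1 of each. No paired analysis was possible because the mock group holds 1 array. Dim probes, such as that of CRP, limit what can be detected, and the 1 mock array limits every comparison.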
